A study of Mus musculus with 24 samples.

Results

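Glycolysis breaks glucose down to pyruvate in the cytosol, and most of its steps are carried in skeletal muscle by 1 dominant isoenzyme each. The mRNA of 10 enzyme genes of the pathway, Gpi1, Pfkm, Aldoa, Tpi1, Gapdh, Pgk1, Pgam2, Eno1, Eno3 and Pkm, was followed in the gastrocnemius muscle of 24 mice. The genes were chosen by name as main enzymes between glucose 6-phosphate and pyruvate, with Eno1 beside the muscle enolase Eno3, and each was found by its Ensembl identifier among the 55416 genes counted. All 10 passed the filter on low counts, which kept 16408 genes. The mice were wild-type males and females, of the strain labelled C56BL6J, and the methods describe purchase at 8 weeks of age. Each sex was split into a sham and an SMC group of 6 mice, which gave 4 groups. SMC stands for small mouse cage, a low box that restricts movement without surgery or unloading, in which mice lived for 8 weeks, while sham mice could move about freely. The labels give no transgene, drug or diet, and the question was what SMC does to muscle gene expression in each sex.

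Glucose 6-phosphate isomerase, phosphofructokinase and aldolase prepare and split the sugar, and triose phosphate isomerase interconverts the resulting triose phosphates. Glyceraldehyde 3-phosphate dehydrogenase and phosphoglycerate kinase then yield the first ATP, and phosphoglycerate mutase, enolase and pyruvate kinase yield the rest. Fast, glycolytic muscle fibres hold far more of these enzymes than slow, oxidative fibres, and gastrocnemius is a mixed muscle in which fast fibres predominate. Several of the genes are textbook targets of hypoxia-inducible factor 1, which binds a core of ACGTG or GCGTG.

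Total counts per library lay between 23026627 and 36880413. The 10 genes were deeply counted, from 1046 counts for Eno1 in its shallowest library to 519800 for Aldoa in its deepest, so the spread between mice and not counting noise set the precision. The skeletal muscle markers (Acta1, Ckm and 4 others) were high in every library, with a summed level of 138801 to 369143 CPM (counts relative to library size, scaled by the trimmed mean of M-values, TMM). Male sham replicate 4 and female sham replicate 7 stood apart. Their 10 slow fibre markers summed to 88.2 and 69.5 CPM, against group medians of 1665 to 3030 CPM, and their 10 fast fibre markers gave the highest sums of their groups, 138289 and 160506 CPM. Because these libraries touch nearly every enzyme, results are given with and without them, and how far fibre content sets the enzyme values of the other mice was not tested. In bulk muscle, fewer cells of a type and less RNA per cell cannot be told apart.

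The sequence before 3 of the genes is shown because these genes recur in the results, Pgk1 as the enzyme whose level ran apart from the others, and Pgam2 and Eno3 as the muscle-restricted enzymes. Each line is a RefSeq window of 300 bases on GRCm38.p6, most of it upstream of the annotated start, written 5′ to 3′ on the gene's strand, with ACGTG or GCGTG on either strand in capitals. The windows are chrX:106186850-106187149 (plus strand) for Pgk1, chr11:5803747-5804046 (minus strand) for Pgam2 and chr11:70656926-70657225 (plus strand) for Eno3.
Pgk1: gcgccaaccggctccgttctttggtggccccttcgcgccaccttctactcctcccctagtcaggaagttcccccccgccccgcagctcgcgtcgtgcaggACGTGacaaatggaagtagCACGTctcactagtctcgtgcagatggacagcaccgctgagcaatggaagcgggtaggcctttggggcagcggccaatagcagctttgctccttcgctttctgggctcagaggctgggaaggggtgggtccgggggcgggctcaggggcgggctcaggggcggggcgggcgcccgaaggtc
Pgam2: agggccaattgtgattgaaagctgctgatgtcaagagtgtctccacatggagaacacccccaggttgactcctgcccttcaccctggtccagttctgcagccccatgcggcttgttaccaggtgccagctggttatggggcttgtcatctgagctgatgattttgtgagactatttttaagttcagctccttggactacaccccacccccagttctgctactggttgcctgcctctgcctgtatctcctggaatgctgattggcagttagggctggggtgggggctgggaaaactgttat
Eno3: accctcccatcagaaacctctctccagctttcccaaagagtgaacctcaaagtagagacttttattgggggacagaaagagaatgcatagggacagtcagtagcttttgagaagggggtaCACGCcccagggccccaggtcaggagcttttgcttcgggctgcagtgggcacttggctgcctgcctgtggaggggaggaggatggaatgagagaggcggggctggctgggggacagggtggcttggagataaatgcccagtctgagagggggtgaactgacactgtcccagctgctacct
The Pgk1 window was 66.7% G or C with 24 CG dinucleotides and held the hypoxia core letters 2 times and GGGCGG, the GC box, 5 times. The Pgam2 window was 53.3% G or C with 1 CG dinucleotide, no core letters and 5 matches to CANNTG, the E-box letters that muscle regulators of the MyoD family bind. The Eno3 window was 57.0% G or C with 3 CG dinucleotides, 1 core match and 2 E-box matches. Over all 32851 windows the median was 52.7% G or C and 7 CG dinucleotides, so Pgk1 had a CG-rich start and the muscle enzymes CG-poor ones. All 10 genes had at least 1 window, 18 in all. Of these, 12 windows, from 7 genes, held ACGTG or GCGTG, a sequence found in 43.8% of all windows. CANNTG was in 13 windows of 9 genes against 72.3% of all windows, and GGGCGG in 8 windows of 6 genes against 35.7%. TATAAA (13.6% of all windows) was in none of the 18, and the MEF2 motif (3.19%) was in 1, that of Pgam2. Some windows of Pfkm, Aldoa and Eno1 overlap each other, so the same match can be counted again in a further window. All letters were searched on both strands, ACGTG can overlap CANNTG, and a match is a description of these windows only.

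Levels between genes were compared per kilobase of the principal transcript. Aldoa, which cleaves fructose 1,6-bisphosphate, was the most abundant of the 10 in every group, with 6965 ± 1503 CPM per kilobase in male sham and 8176 ± 1213 in female SMC (mean ± SD, n = 6). Gapdh followed with group means of 3191 to 4044, and Eno3, the muscle enolase, with 2037 to 2274. Pfkm (984 to 1071), Pkm (923 to 990) and Pgam2 (872 to 1027) lay close together, and their ranges over the mice overlapped in every group, with Pkm and Pgam2 changing places between sham and SMC mice. Tpi1 had 638 to 726, Gpi1 217 to 258 and Pgk1 168 to 186, while Eno1, the enolase of most other tissues, had 25.7 to 28.4 CPM per kilobase. The range from Aldoa to Eno1 was therefore far wider than any difference between groups. With all annotated exons as the length, Eno3 came before Gapdh, Pgam2 before Pfkm and Pgk1 before Gpi1, so the order of these neighbours depends on the length used.

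**Figure D1:**
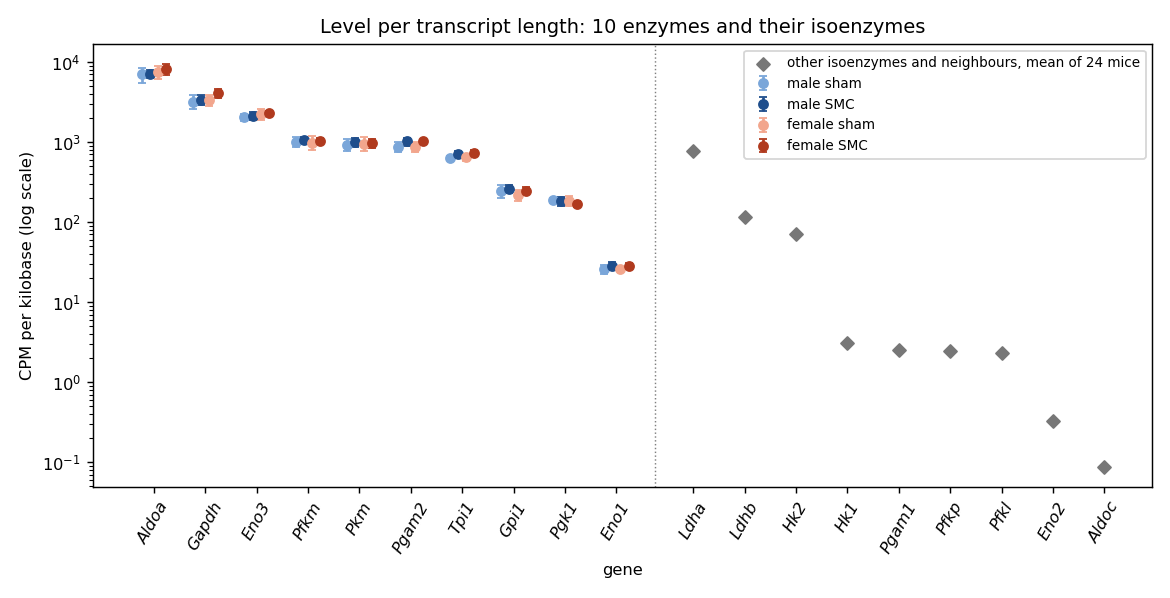
Level per transcript length on a log axis (CPM per kilobase of principal transcript) for the 10 enzymes, with 1 point per group as mean and SD bars over 6 mice, and for isoenzymes and neighbouring genes as means over 24 mice (grey diamonds). Aldoa lay highest at 6965 to 8176 and Eno1 lowest of the 10 at 25.7 to 28.4, and groups of a gene lay close together compared with the distances between genes.

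The muscle isoenzymes held nearly all of the counted mRNA of their step. Per kilobase, Pfkm made up 99.3% to 99.7% of the phosphofructokinase mRNA of Pfkm, Pfkl and Pfkp across the 24 mice. Pgam2 made up 99.6% to 99.9% of that of Pgam2 and Pgam1. Eno3 made up 98.5% to 99.1% of that of Eno3, Eno1 and Eno2, and the share was highest in male sham replicate 4 and female sham replicate 7 within their groups. The log2 ratio of Eno3 to Eno1 CPM was 5.84 ± 0.276 in male sham, 5.76 ± 0.13 in male SMC, 5.94 ± 0.215 in female sham and 5.86 ± 0.142 in female SMC (mean ± SD, n = 6), and the groups overlapped in both sexes. Enzymes at either end of the pathway were less exclusive. Ldha, the muscle subunit of lactate dehydrogenase, made up 76.8% to 99.2% of the mRNA of Ldha and Ldhb, and both libraries poor in slow fibre markers had the highest shares of their groups. Hk2, which phosphorylates glucose in muscle, made up 89.8% to 95.3% of the hexokinase mRNA.

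Reads of near-identical copies could be split or dropped in counting. Copies annotated as pseudogenes numbered 319 for Gapdh and held together 35.6 CPM, or 0.754% of the Gapdh level. Pkm had 14 copies (0.384%), Aldoa 13 (0.0787%), Eno1 12 (0.299%), Tpi1 7 (0.0802%), Pgk1 6 (0.171%) and Gpi1 1 (0.247%), whereas none was found for Pfkm, Pgam2 and Eno3. The Aldoa copies include Aldoart1 (5.64 CPM) and Aldoart2, and the Eno1 copies include Eno1b, which were added to the search by name. Pgk1-rs7 matched Pgk1 at 100% identity over 1255 bases, Gm10359 matched Gapdh at 100% over 1002 bases, and Gm4735 matched Eno1 at 99.6% over 1302 bases. Reads that fit both places may be missing from either count, so the levels of Pgk1, Gapdh and Eno1 are uncertain. Genes overlapping a member, such as Senp1 on the strand opposite Pfkm (16.4 CPM) and Gm49759 on the strand of Pkm (23.3 CPM), had at most 0.998% of the member's level.

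After SMC, 9 of the 10 enzymes had a fold change above 1 in males and the same number in females, with Pgk1 the exception in both, but the changes were small and overlapped between groups. The median log2 fold change of the 10 was 0.09 in males and 0.13 in females, against -0.0044 and -0.011 over all genes tested, of which 49.1% and 47.6% were above 0. None of the 10 passed an FDR under 0.05 by edgeR's quasi-likelihood test in either sex. In males no gene of the 16408 did (0%), and in females 56 did (0.341%). One of the 10, Pgam2, had an unadjusted p under 0.05 in each sex, higher in both, against 5.41% of all genes higher at that level in males and 5.02% in females. DESeq2 and limma voom also called none of the 10 in either sex. At an unadjusted p under 0.05, DESeq2 had 2 of them in males and 3 in females, against 11.4% and 12.6% of all genes, and limma voom 2 and 4, against 16.9% and 11.9%. No enzyme had sham and SMC groups that did not overlap. Among all genes 0.591% lay wholly higher and 0.311% wholly lower in male SMC mice, and in females 0.396% lay wholly higher and 0.634% wholly lower. Averaged over the sexes, where the fit has the most power, 388 genes passed (2.36%) and again none of the 10, with 3 of them (Pgam2, Tpi1 and Eno1) higher at an unadjusted p under 0.05 against 7.9% of all genes.

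**Figure D2:**
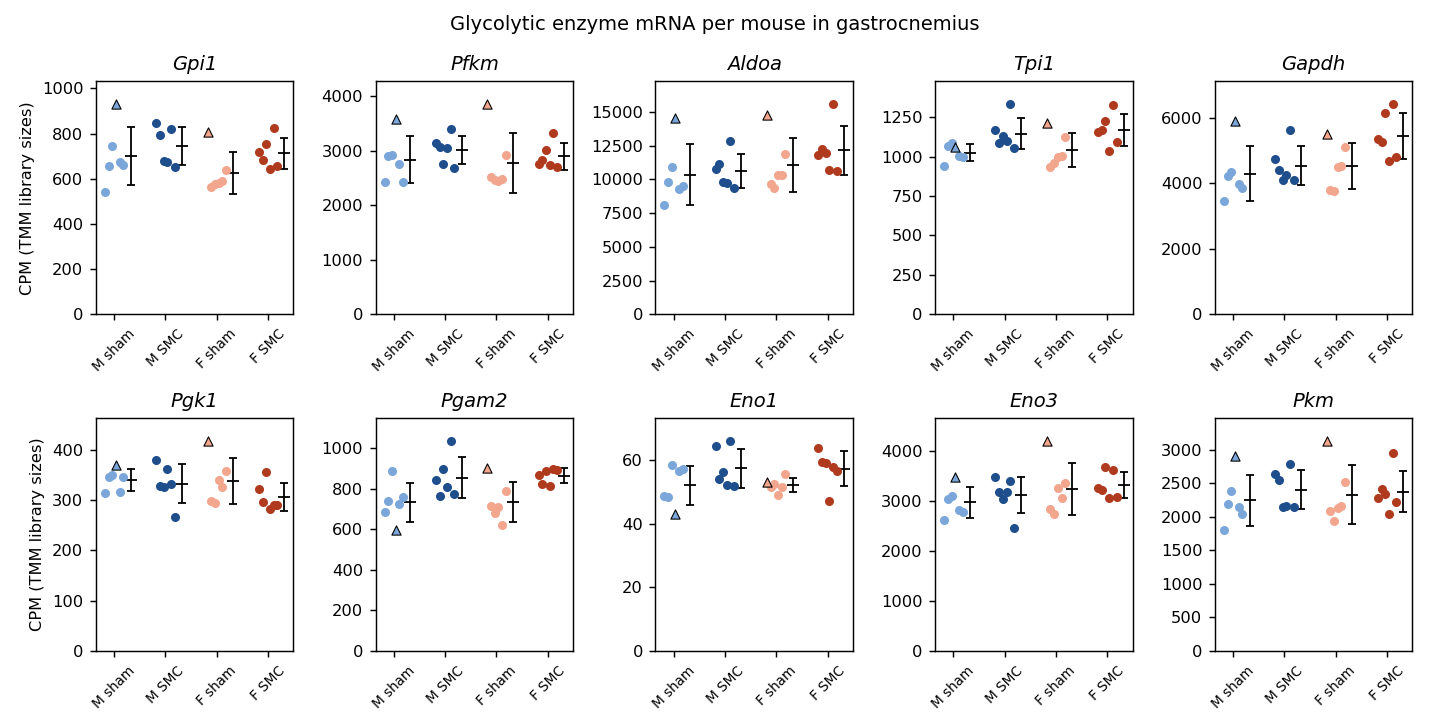
CPM of each enzyme per mouse (linear axes from 0) in male (M) and female (F) sham and SMC groups of 6, with the mean and SD in black beside each group; triangles mark male sham replicate 4 and female sham replicate 7. In every panel the sham and SMC points overlap in both sexes, and the triangles lie at or near the top for Gpi1, Pfkm, Aldoa, Gapdh, Eno3 and Pkm but at the bottom for male Pgam2 and Eno1.

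In the upper part of the pathway, Gpi1, which converts glucose 6-phosphate to fructose 6-phosphate, had 540, 668 and 930 CPM in male sham (lowest, median and highest of 6 mice) and 653, 738 and 848 CPM in male SMC. In females it had 565, 586 and 808 CPM in sham and 645, 700.0 and 825 CPM in SMC. Female SMC mice thus lay above all sham females but 1, female sham replicate 7. The log2 fold change was 0.09 (SE 0.11) in males and 0.19 (SE 0.11) in females, with edgeR FDRs of 0.839 and 0.535. Without the pair of libraries poor in slow fibre markers, it was 0.17 in males and 0.28 in females (unadjusted p = 0.0055 by edgeR across all genes, FDR 0.123).

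Pfkm encodes the muscle subunit of phosphofructokinase, the main control point of glycolysis. Its CPM were 2427, 2822 and 3584 in male sham, 2688, 3055 and 3392 in male SMC, 2437, 2490 and 3846 in female sham and 2703, 2791 and 3328 in female SMC. All but 1 of the female sham mice lay between 2437 and 2917 CPM, and the highest, replicate 7, exceeded every SMC mouse. The log2 fold change was 0.09 (SE 0.12) in males and 0.06 (SE 0.12) in females.

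Aldoa showed the widest range, 1.92-fold between the lowest and the highest mouse. It had 8082, 9668 and 14511 CPM in male sham, 9373, 10272 and 12843 in male SMC, 9330, 10330 and 14753 in female sham and 10598, 11889 and 15548 in female SMC. Male groups had nearly the same level and female groups overlapped broadly, with log2 fold changes of 0.04 (SE 0.14) and 0.14 (SE 0.14).

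Tpi1, which interconverts the triose phosphates, varied least, 1.42-fold over the 24 mice. Its CPM were 941, 1031 and 1086 in male sham, 1057, 1116 and 1331 in male SMC, 935, 1001 and 1215 in female sham and 1038, 1160 and 1328 in female SMC. The median of each SMC group lay above that of its sham group, and the log2 fold changes were nearly equal, 0.16 (SE 0.08) in males and 0.17 (SE 0.08) in females. Averaged over the sexes the log2 fold change was 0.16 (95% interval 0.04 to 0.28, edgeR FDR 0.13), a rise that did not pass the threshold.

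Gapdh, which couples triose oxidation to NADH, had the largest fold estimate in females. Sham females had 3767, 4506 and 5514 CPM and SMC females 4696, 5309 and 6410 CPM, a 1.20-fold ratio with a 95% interval of 0.995 to 1.45 (edgeR FDR 0.417). In males the CPM were 3455, 4103 and 5902 in sham and 4103, 4324 and 5641 in SMC, a ratio of 1.06 (0.877 to 1.28). The difference between the sexes was not significant, at -0.18 on the log2 scale (95% interval -0.56 to 0.20, edgeR FDR 0.997). Gapdh is often used as a reference transcript, and here it spanned 1.86-fold over the 24 mice.

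Pgk1 encodes the kinase that makes the first ATP of the pathway and was the only one of the 10 with an estimate below 0 in both sexes. Its CPM were 313, 345 and 369 in male sham, 266, 330 and 380 in male SMC, 293, 332 and 417 in female sham and 282, 294 and 355 in female SMC. The SMC medians were lower, most of all in females, but the groups overlapped. The log2 fold change was -0.03 (SE 0.09) in males, -0.14 (SE 0.09) in females and -0.09 (95% interval -0.22 to 0.04, edgeR FDR 0.506) averaged over the sexes. With library totals in place of TMM scaling, which lowers the median of all genes to -0.14, the averaged value was -0.21 (edgeR FDR 0.0184).

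Pgam2, the muscle phosphoglycerate mutase, had the lowest p of the 10. Male sham mice had 597, 732 and 888 CPM and male SMC mice 764, 825 and 1034 CPM. Female sham mice had 620, 711 and 903 CPM and female SMC mice 814, 876 and 898 CPM. In females all 6 SMC mice lay above 5 of the 6 sham mice, and the SMC mice were tightly grouped, with an SD of 36.8 CPM against 98.3 CPM in sham. The fold change was 1.17 in males (95% interval 1.01 to 1.3396, edgeR FDR 0.394) and 1.17 in females (1.02 to 1.35, edgeR FDR 0.318). Averaged over the sexes it was also 1.17 (1.06 to 1.29), with an edgeR FDR of 0.0772, short of the threshold. The averaged difference passed with DESeq2's test (FDR 0.0275), with limma voom and quality weights (FDR 0.0231), without male sham replicate 3 (edgeR FDR 0.0424), without female sham replicate 7 (edgeR FDR 0.0391), and without both libraries poor in slow fibre markers (edgeR FDR 0.0453). Male sham replicate 3 and female sham replicate 7 had the highest Pgam2 of their groups, 888 and 903 CPM, so leaving out either raises the estimate by construction. Over all 32 alternatives, the averaged FDR of Pgam2 ran from 0.0231 to 0.361, the latter with library totals in place of TMM scaling, 5 of them passed, and the log2 fold change stayed above 0 (0.097 to 0.26).

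The enolases convert 2-phosphoglycerate to phosphoenolpyruvate. Eno3 had 2620, 2933 and 3485 CPM in male sham, 2460, 3181 and 3483 in male SMC, 2743, 3170 and 4202 in female sham and 3070, 3241 and 3679 in female SMC, and its log2 fold changes were 0.07 (SE 0.11) and 0.03 (SE 0.11). Eno1 had 43.3, 52.9 and 58.4 CPM in male sham, 51.8, 55.3 and 66.1 in male SMC, 49.1, 52.2 and 55.7 in female sham and 47.2, 58.5 and 63.9 in female SMC. Its log2 fold change was 0.14 (SE 0.08) in males and 0.13 (SE 0.08) in females, and 0.14 (95% interval 0.02 to 0.26, edgeR FDR 0.211) averaged over the sexes.

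Pkm, pyruvate kinase of muscle, closes the pathway, and counts per gene do not separate its splice forms. It had 1810, 2165 and 2904 CPM in male sham, 2149, 2355 and 2789 in male SMC, 1931, 2148 and 3130 in female sham and 2039, 2312 and 2948 in female SMC. Medians were higher by a small margin after SMC, all groups overlapped, and the log2 fold changes were 0.10 (SE 0.13) in males and 0.03 (SE 0.13) in females.

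**Figure D3:**
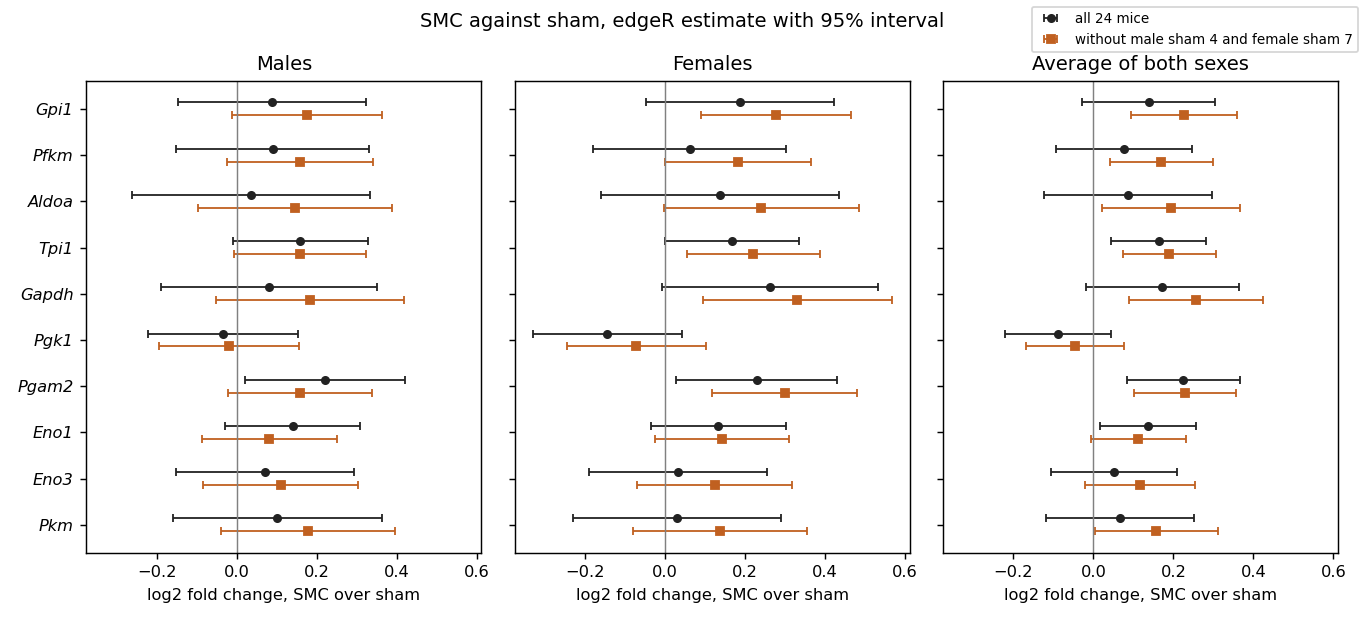
Log2 fold change of SMC over sham for each enzyme in males, in females and averaged over the sexes, as the edgeR estimate (point) with its 95% interval (bar), from all 24 mice (black) and without male sham replicate 4 and female sham replicate 7 (orange). The estimates for 9 enzymes lie right of 0 and that of Pgk1 left of it, the Pgam2 average is 0.22 (0.08 to 0.37) with all mice, and every orange point lies further right in females.

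Leaving out male sham replicate 4 and female sham replicate 7 raised the estimates of all 10 enzymes in females and of 7 in males, Tpi1, Pgam2 and Eno1 excepted. Both are sham mice, and no SMC mouse was left out. Female sham replicate 7 had the highest female sham value of every enzyme but Eno1. Male sham replicate 4 had the highest male sham value of those 7. Dropping them therefore raises most estimates by construction, and the counts below carry that limit. In females, 4 of the 10 then had an unadjusted p under 0.05, all higher (Pgam2, Gpi1, Tpi1 and Gapdh), against 7.56% of all genes higher, and none passed the FDR threshold by edgeR, whereas 0.936% of all genes did. Averaged over the sexes, 7 of the 10 were higher at an unadjusted p under 0.05, against 9.69% of all genes, and 1, Pgam2, passed the FDR threshold, as 3.18% of all genes did. In that fit the averaged log2 fold changes were 0.26 for Gapdh (FDR 0.074), 0.23 for Gpi1 (FDR 0.0519) and 0.19 for Tpi1 (FDR 0.0643), each by edgeR. Pgk1 stayed at -0.05 (FDR 0.713). In males Pgam2 went down to 0.16 and Eno1 to 0.08, since male sham replicate 4 had the lowest values of both. Leaving out male sham replicate 1 alone, a library with low values, lowered the male estimate of Gpi1 from 0.09 to 0.021. That of Pkm fell from 0.10 to 0.043.

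The direction of the small changes also rested on the scaling. TMM factors were 0.904 to 1.01 in male SMC and 0.906 to 0.9999 in female SMC, against 0.949 to 1.21 and 0.854 to 1.32 in the sham groups. Ttn, the giant sarcomere protein gene, took 18.6% ± 0.816 of all counts in male SMC and 20.003% ± 0.852 in female SMC, against 14.4% ± 3.22 and 17.6% ± 3.63 in sham (mean ± SD, n = 6). With library totals and no TMM factors, 6 of the 9 enzymes above 0 in males and 4 of the 9 in females had estimates below 0, while the median of all genes moved to -0.13 and -0.15. As a share of all counts, the 10 genes together held 2.68% ± 0.293 in male sham, 2.59% ± 0.261 in male SMC, 2.75% ± 0.259 in female sham and 2.77% ± 0.255 in female SMC, and the groups overlapped. The share of RNA given to these enzymes thus differed between sham and SMC by less than the spread between mice.

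A comparison within each library needs no scaling. Each enzyme was set against the mean log2 CPM of the other 9, and of the 20 comparisons of SMC with sham that resulted, 1 had groups that did not overlap, Pgk1 in females. Relative to the other 9, Pgk1 was at -2.13, -2.10 and -1.9998 in female sham (lowest, median and highest) and at -2.64, -2.33 and -2.22 in female SMC, a difference of -0.28 in means. In males it was at -2.14, -2.07 and -1.95 in sham and -2.42, -2.18 and -1.9995 in SMC, a difference of -0.16 with overlap. The Pgk1 count may lack reads that also fit its identical copies. Among the other genes tested, 1.26% lay wholly lower in female SMC mice relative to the mean of the 10, and 0.0915% wholly higher. The log2 ratio of Pgam2 to Pgk1, which was picked after these values were seen, was 1.121 ± 0.117 in female sham and 1.498 ± 0.118 in female SMC without overlap, and 1.10 ± 0.218 and 1.36 ± 0.212 in males with overlap (mean ± SD, n = 6). Both are given as descriptions, without a test.

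**Figure D4:**
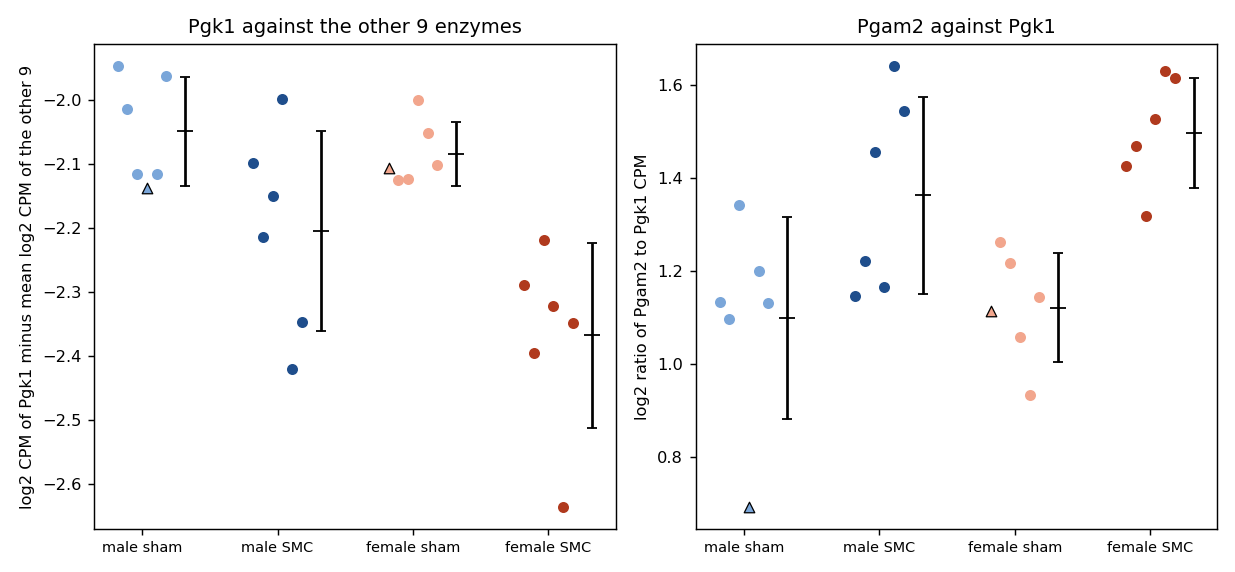
Left, log2 CPM of Pgk1 minus the mean log2 CPM of the other 9 enzymes of the same library; right, log2 ratio of Pgam2 to Pgk1 CPM. Each point is 1 mouse in the 4 groups of 6, with mean and SD in black and triangles for male sham replicate 4 and female sham replicate 7; the female groups separate in both panels (-2.08 against -2.37, and 1.121 against 1.498), and the male groups overlap.

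Neither sex nor its interaction with SMC gave a called enzyme. The interaction, the male response minus the female one, had 5 log2 values above 0 and 5 below, all with an edgeR FDR of 0.997, and none of the 10 had an unadjusted p under 0.05. The values ran from -0.18 for Gapdh to 0.11 for Pgk1. The 95% interval of Gapdh ran from -0.56 to 0.20, so with 6 mice a group a difference in response as large as -0.56 was not excluded. No gene of the whole table was called (0%), 841 had an unadjusted p under 0.05 (5.13%), and DESeq2 called 1. Between males and females averaged over housing, 809 genes were called (4.93%) and none of the 10, none of which had an unadjusted p under 0.05 either (19.3% of all genes). The largest estimates were -0.17 for Gapdh (edgeR FDR 0.322) and -0.15 for Aldoa (FDR 0.462), both lower in males, and 0.11 for Gpi1 (FDR 0.47), higher in males.

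Across the 24 mice the enzymes moved together. All 45 pairs had a Pearson r of log2 CPM above 0, from 0.06 to 0.93 with a median of 0.68, and from 0.04 to 0.94 with a median of 0.69 without the libraries poor in slow fibre markers. Pairs share their library, its scaling and the fibre content of the sample, so these values are descriptions. Aldoa and Gapdh formed the closest pair. Against the mean of the other 9, Pkm had the highest r (0.909) and Tpi1 came next (0.891), whereas Pgk1 had 0.416, Eno1 0.369 and Pgam2 0.522. Without both libraries Eno1 and Pgam2 rose to 0.703 and 0.754, and Pgk1 came to 0.24. Pgk1 was therefore the one enzyme that tracked the rest only loosely with and without them. The extremes of the table came from few mice. Male sham replicate 1 was lowest of all 24 in 5 of the 10 enzymes, and female sham replicate 7 was highest in 4.

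**Figure D5:**
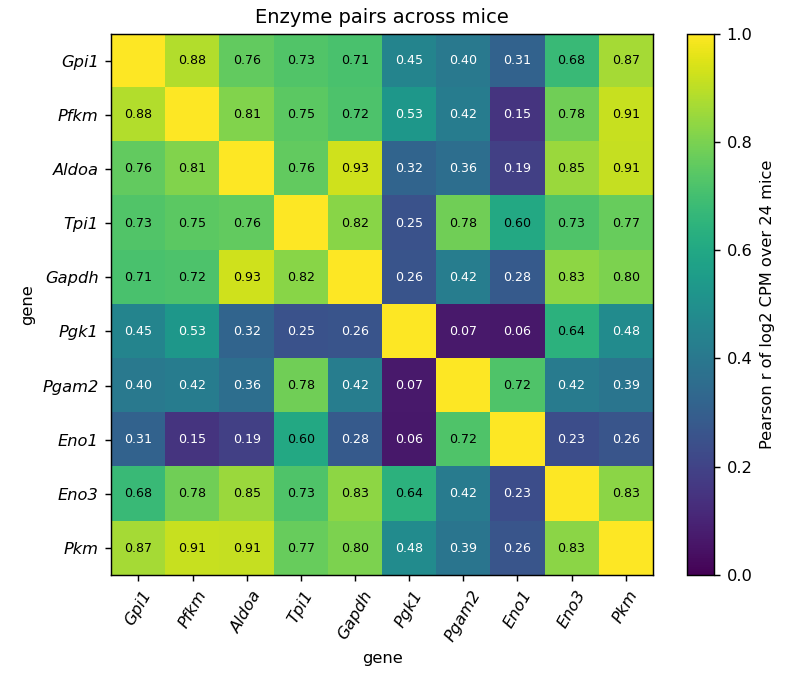
Pearson r of log2 CPM over 24 mice for each pair of enzymes (colour scale from 0 to 1, values printed in the cells). A block of high values joins Gpi1, Pfkm, Aldoa, Tpi1, Gapdh, Eno3 and Pkm, with 0.93 for Aldoa and Gapdh. Pgk1, Pgam2 and Eno1 have lower values with it, except for Pgam2 with Tpi1 (0.78), and Pgk1 has 0.07 with Pgam2 and 0.06 with Eno1.

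The genes outside the 10 whose log2 CPM was most like their mean over the 24 mice were Ckm (r = 0.918), the muscle creatine kinase, Atp2a1 (0.893), the calcium pump of fast fibres, Mybpc2 (0.893), the fast myosin-binding protein, Rnf123 (0.888) and Pygm (0.886), the muscle glycogen phosphorylase. Without both libraries poor in slow fibre markers these were 0.859 to 0.909. The most opposite were Gk (-0.843), Tspan12 (-0.836), Chuk (-0.832), 4633401B06Rik (-0.823) and Lurap1l (-0.802). All but Chuk of these opposite genes were low, with mean levels of 1.51 to 6.33 CPM.

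Of 37 other genes of glycolysis, gluconeogenesis and their neighbouring steps, 28 were tested, and none was called with SMC by edgeR in males, in females or on average. At an unadjusted p under 0.05, 1 was higher in males (5.41% of all genes), and 2 were higher and 3 lower in females (5.02% and 7.47% of all genes). Hk2 had median CPM of 416 in male sham, 425 in male SMC, 401 in female sham and 365 in female SMC, with an averaged log2 fold change of -0.04 (SE 0.08). Ldha had medians of 1234, 1317, 1272 and 1281 CPM in the same order, and an averaged log2 fold change of -0.00016 (SE 0.07). Ldhb, which is rich in slow fibres, ran from 8.19 CPM in male sham replicate 4 to 245 CPM. The minor isoenzymes stayed minor, with means over the 24 mice of 8.51 CPM for Pfkl, 10.1 for Pfkp, 4.49 for Pgam1, 0.921 for Eno2 and 0.198 for Aldoc, which was too low to test. Pfkp was at 12.6 ± 3.98 CPM in female sham and 9.06 ± 1.06 in female SMC (mean ± SD, n = 6, edgeR FDR 0.208). Among 13 paralogues and retrocopies, 6 were tested and none was called in any comparison by edgeR. At an unadjusted p under 0.05, 1, Pfkp, was lower in females, as were 7.47% of all genes. Pfkl was lower on average, where 2879 of all 16408 genes passed that level in either direction. Pfkp also passed that level for the interaction, as did 5.13% of all genes. The Pfkp interaction was 0.64 (SE 0.24, edgeR FDR 0.926), with log2 fold changes of 0.16 in males and -0.48 in females.

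By sex, 2 of the 28 tested genes of the wider glycolysis list were called, beside 4.93% of all genes. Gpd2, the mitochondrial glycerol 3-phosphate dehydrogenase that passes cytosolic NADH to the respiratory chain, was lower in males, with medians of 168 and 176 CPM in male sham and SMC against 239 and 256 CPM in females (log2 difference -0.44, SE 0.10, edgeR FDR 0.0128). Tigar, a fructose bisphosphatase that lowers glycolytic flux, was higher in males, with medians of 111 and 117 CPM against 78.4 and 101 CPM (0.32, SE 0.07, edgeR FDR 0.0071). Its interaction with SMC was -0.25 (edgeR FDR 0.955).

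Regulators of these genes in muscle were also looked at. Six4, Eya1 and Tbx15 of fast fibres, Hif1a, Arnt and Epas1 of the hypoxia response, and Mef2a, Mef2c and Mef2d were tested, and none of these was called by edgeR in any comparison. At an unadjusted p under 0.05, Six4 was higher in females after SMC and higher in males than in females, and the others named passed in no comparison. Of 7 hypoxia targets outside glycolysis, 2 were called, both lower after SMC averaged over the sexes, where 1.33% of all genes were called lower. Bnip3, a mitophagy receptor, had 125, 162 and 209 CPM in male sham, 110, 120 and 124 in male SMC, 115, 123 and 157 in female sham and 93.1, 110 and 119 in female SMC. Male SMC mice lay wholly below male sham mice and the female groups overlapped, and the averaged log2 fold change was -0.34 (SE 0.07, edgeR FDR 0.0138). Ddit4, an mTORC1 inhibitor induced by stress and fasting, had medians of 19.7 and 9.83 CPM in male sham and SMC and 73.9 and 16.9 CPM in females (-2.39, SE 0.55, edgeR FDR 0.0217). Its sham groups were very wide, from 9.16 to 165 CPM in males and from 9.76 to 360 CPM in females. Bnip3 was also higher in males than in females (0.24, edgeR FDR 0.0472), and Car9, a carbonic anhydrase of low level here (0.406 to 3.85 CPM), was lower in males (-0.91, edgeR FDR 0.0323).

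No marker list of another cell type gave a called gene by edgeR in any comparison. At an unadjusted p under 0.05, 3 of 5 fibroblast markers and 4 of 5 tendon markers were lower in SMC females, as were 7.47% of all genes. Their summed levels in SMC females were 594 to 924 and 125 to 384 CPM against 509 to 1759 and 196 to 751 CPM in female sham. In SMC males, 1 of 5 endothelial markers (Kdr) and 1 of 5 Schwann cell markers were higher at that level, as were 5.41% of all genes. Macrophage, red blood cell and adipocyte markers had none past it in either sex, and every listed marker was detected. Averaged over housing, some markers were lower in males than in females at an unadjusted p under 0.05, as were 10.8% of all genes. They were 5 of 6 adipocyte markers (median log2 difference -1.06), 3 of 5 Schwann cell markers (-0.39) and 2 of 5 tendon markers (-0.43). In the other direction, 1 of 5 endothelial markers was higher in males, and 19.3% of all genes passed in either direction. The slow fibre markers had a median log2 fold change of 0.57 in males and 0.61 in females and the fast fibre markers 0.01 and 0.12, with none past an unadjusted p of 0.05 in either sex. These values include male sham replicate 4 and female sham replicate 7, which lower the sham level of slow fibre markers, and none is given without them. Between the sexes, 9 of 10 slow fibre markers had an estimate lower in males (median -0.58), 1 of them at an unadjusted p under 0.05. The fast fibre markers had a median of 0.03, with 1 higher in males at that level. The part of these cell types in the enzyme values and in the differences by sex was not tested.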

How the data were processed

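Total RNA of gastrocnemius muscle from 24 mice was depleted of ribosomal RNA and sequenced from directional libraries. The authors deposited raw read counts per Ensembl gene, 1 column per mouse, without normalization. The submitters' processing notes name cutadapt 1.16, STAR 2.7.9a, featureCounts 1.6, DESeq2 1.34.0 and GRCm39. The annotation release and strand setting are not given in the sources used here. Reads that map to near-identical copies or overlapping genes can be lost or shared by such counting. Symbols (52135 of 55416 identifiers) and transcript lengths came from GENCODE M21 on GRCm38, matched by identifier, and promoter windows from RefSeq on GRCm38.p6, so no coordinate was joined to the counts. Aldoa was taken as ENSMUSG00000030695.

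Samples were grouped by their titles. Genes were filtered with filterByExpr (16408 kept), scaled by TMM and fitted with edgeR 4.0.16 (R 4.3.3) by a quasi-likelihood model with 1 mean per group over all 24 libraries. Tests were two-sided with Benjamini-Hochberg adjustment over all genes and an FDR threshold of 0.05. Log2 CPM used a prior count of 2. Labels do not say whether mice shared cages, so p-values measure the spread between these mice. Of 60 library pairs within groups, none agreed within sampling noise (smallest chi-square per degree of freedom 9.8). Alternatives were DESeq2 1.42.0, limma 3.58.1 voom with quality weights, other scalings and filters, a fit per sex, and leaving out libraries. The fit was tested on simulated data.

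The genes and lists were chosen with earlier results of these data known. Named by rule were the 10 enzymes, list genes called in any comparison, 8 isoenzymes and the 5 genes most and 5 least like the mean of the enzymes. Copies were sought among annotated pseudogenes, with Eno1b, Aldoart1, Aldoart2, Pgk2 and Gapdhs added by name. They were found with blastn 2.17.0 (at least 80% identity over 300 bases), a rule set after the counts were seen. Some listed genes are not reported here.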

Additional observations from a re-analysis of the deposited data

Results flagged for a closer look

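In female sham mice, Gpi1 of replicate 7 stood far from the others, at 9.66 log2 CPM against 9.14 to 9.32 in the remaining 5 mice. It was the only one of 48 groups of 6 tested (each enzyme and 2 summary measures in each group) in which the gap from the extreme sample to the next exceeded Dixon's 95% critical value as a fraction of the range. Chance alone flags about 1 in 20 groups, or 2.4 of 48. The same library had 69.5 CPM of slow fibre markers in sum, against a female sham median of 2117 CPM.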

How the results depend on the processing

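No paired analysis was possible because the groups share no replicate numbers. The number of genes called moved with the setting. In males DESeq2's test called 128 and limma voom 93, against 0 under each edgeR scaling and filter run on all libraries. In females the number was 37 with DESeq2 size factors, 37 without the 10 most counted genes in library sizes, 210 with library totals, 268 with DESeq2's test, 16 with limma voom, 14 from the 12 female libraries alone and 155 without male sham replicate 4 and female sham replicate 7. On average over the sexes it was 1823 with library totals, 189 without a filter and 778 with DESeq2's test. The interaction had 1 call with DESeq2's test. Between the sexes it was 1420 with limma voom and 1268 without both libraries. Leaving out 1 library at a time gave 0 to 78 calls in males (78 without male sham replicate 5), 0 to 147 in females (0 without female SMC replicate 22 or 23), 0 to 1 for the interaction and 236 to 501 on average. Without the 10 most counted other genes, the enzymes held 3.9999% of counts in male sham, 4.16% in male SMC, 4.25% in female sham and 4.53% in female SMC.

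Of the 10 enzymes, DESeq2's test called 2 on average (Pgam2 and Tpi1, the latter with an FDR of 0.0467). Library totals turned these log2 fold changes. In males they gave -0.027 for Gpi1, -0.029 for Pfkm, -0.078 for Aldoa, -0.034 for Gapdh, -0.054 for Eno3 and -0.016 for Pkm. In females they gave -0.053 for Pfkm, -0.0030 for Eno1, -0.085 for Eno3 and -0.087 for Pkm. On average they gave -0.041 for Pfkm, -0.029 for Aldoa, -0.069 for Eno3 and -0.052 for Pkm. Between the sexes they gave 0.0056 for Tpi1, 0.020 for Pgam2, 0.023 for Eno1 and 0.011 for Pkm. With library totals the median of all genes moved too, to -0.13 in males, -0.15 in females and -0.14 on average. Between the sexes it was 0.018. What turned the values between the sexes was not tested.

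Values near 0 also turned elsewhere, and the cause was not tested. The Eno1 interaction was -0.0017 with DESeq2 size factors, -0.0042 without the 10 most counted genes in library sizes, -0.016 without a filter, -0.0018 with DESeq2's test, -0.050 with limma voom and -0.061 without both libraries, where Pfkm was -0.024 and Eno3 -0.014. Between the sexes, Eno1 was 0.010 without a filter, 0.00019 with limma voom and 0.029 without both libraries, and Pgam2 was 0.014 with limma voom and 0.051 without both libraries. Leaving out 1 library at a time, the ranges that crossed 0 were, in males, -0.036 to 0.15 for Aldoa and -0.084 to 0.014 for Pgk1. In females they were -0.012 to 0.12 for Eno3 and -0.037 to 0.14 for Pkm. For the interaction they were -0.099 to 0.092 for Pfkm, -0.21 to 0.0046 for Aldoa, -0.070 to 0.021 for Tpi1, -0.087 to 0.056 for Pgam2, -0.057 to 0.044 for Eno1, -0.061 to 0.085 for Eno3 and -0.043 to 0.14 for Pkm. Between the sexes they were -0.047 to 0.0024 for Tpi1, -0.042 to 0.023 for Pgam2, -0.024 to 0.027 for Eno1 and -0.057 to 0.036 for Pkm. With 6 mice a group, the 95% intervals of single enzymes within a sex reached about 0.17 to 0.30 log2 units to either side, so smaller changes could not be told from 0.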
